A study of Saccharomyces cerevisiae with 24 samples.

Results

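The interiors of chromosomes I, III and VI, the 3 smallest of the 16 nuclear chromosomes of budding yeast (Saccharomyces cerevisiae), were compared between a strain over-expressing replication initiation factors and its control. An interior was every 1-kb bin more than 50 kb from both chromosome ends. On the R64 assembly this was position 50001 to 180000 of chromosome I, 50001 to 266000 of chromosome III and 50001 to 220000 of chromosome VI. These ranges hold 516 bins, of which 494 were present in the tables (124 on I, 206 on III and 164 on VI) out of 11328 bins in the whole genome. The rule used coordinates only, and no measured value. Of the 22 bins absent from the tables, 19 overlap an annotated retrotransposon or long terminal repeat.

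Copy number was measured by sequencing the genome of synchronised cultures. Cells were grown in raffinose, arrested in G1 with alpha factor, given galactose for 30 min in G1 and released into S-phase at 30 °C in galactose. Each strain had 1 G1 library and 1 library at each of 11 time points (5, 10, 15, 20, 25, 30, 35, 40, 45, 50 and 60 min), so there were no replicates and no test between the strains was possible. Both strains are W303a of mating type MATa with the auxotrophic alleles leu2-3, 112, his3-11, 15, trp1-1, ura3-1 and ade2-1, together with can1-100 and rad5-535. Both are deleted for SML1, whose product restrains ribonucleotide reductase. In the SSDDCS strain SML1 was replaced by a marker that the labels call HphNT and the study's strain list calls HphMX. In this strain 3 constructs at LEU2, HIS3 and TRP1 carry Sld7 with Cdc45, SLD3-A with Dbf4-A, and Sld2 with Dpb11. All are driven by the galactose-inducible GAL1-10 promoter. In the control, sml1Δ, SML1 was replaced by URA3 and no factor was over-expressed. The labels name 1 strain per genotype, and the loss of SML1 cannot be checked in these data because each ratio is taken to the G1 library of the same strain.

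Replication in budding yeast starts at origins called autonomously replicating sequences (ARS), where the origin recognition complex binds an AT-rich consensus. Sld3, Sld7, Cdc45, Sld2, Dpb11 and the Dbf4-dependent kinase turn the loaded helicase into a moving replication fork, and their supply limits how many origins fire early. Origins close to centromeres fire early in wild-type cells, where Dbf4-dependent kinase is recruited through the kinetochore. On short chromosomes much of the interior lies near a centromere.

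The sequences that the results below return to are those of the 3 centromeres and, per chromosome, of 1 origin with a strongly negative and 1 with a small or positive Trep difference at its own bin, among annotated origins of at most 300 bases. They are R64 plus-strand sequence from RefSeq. In the origins, capitals mark the best match to the 11-base ARS consensus sequence on either strand, which covers 11 of 11 positions in ARS106 (chrI:70300-70469), ARS107 (chrI:124349-124597) and ARS606 (chrVI:167547-167801), 10 in ARS313 (chrIII:194308-194367) and ARS603 (chrVI:68759-68861), and 9 in ARS309 (chrIII:132043-132120). The match is read on the minus strand in ARS106, ARS107, ARS603 and ARS606. ARS106, ARS313 and ARS603 had the most negative Trep difference of their chromosome.
ARS106: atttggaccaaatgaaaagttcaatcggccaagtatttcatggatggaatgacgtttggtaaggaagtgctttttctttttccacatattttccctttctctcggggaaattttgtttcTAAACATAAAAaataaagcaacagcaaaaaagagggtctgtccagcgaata
ARS313: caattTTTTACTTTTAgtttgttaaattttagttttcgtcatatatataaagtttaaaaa
ARS603: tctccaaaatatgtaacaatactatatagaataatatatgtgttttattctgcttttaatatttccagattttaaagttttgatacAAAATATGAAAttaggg
ARS107, ARS309 and ARS606 had differences of -0.94, 2.81 and 0.25 min at their own bins, all within 1.96 SE of 0, and over the 5 bins around them the values were -3.73, -0.48 and -1.74 min.
ARS107: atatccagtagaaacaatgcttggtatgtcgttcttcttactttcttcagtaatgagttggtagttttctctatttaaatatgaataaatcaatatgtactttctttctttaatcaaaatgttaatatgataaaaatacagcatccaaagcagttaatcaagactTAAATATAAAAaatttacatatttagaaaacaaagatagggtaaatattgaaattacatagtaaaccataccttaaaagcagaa
ARS309: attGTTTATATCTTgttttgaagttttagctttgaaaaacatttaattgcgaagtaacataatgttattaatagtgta
ARS606: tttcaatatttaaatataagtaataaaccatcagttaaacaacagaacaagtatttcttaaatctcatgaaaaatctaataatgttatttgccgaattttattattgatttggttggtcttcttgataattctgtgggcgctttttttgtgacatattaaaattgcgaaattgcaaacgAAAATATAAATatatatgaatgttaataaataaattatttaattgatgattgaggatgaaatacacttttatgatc
In the centromeres, at chrI:151465-151582, chrIII:114385-114501 and chrVI:148510-148627, capitals mark CDEI, bound by Cbf1, and CDEIII, bound by the CBF3 complex. The lower-case stretch between them is CDEII, which wraps the centromeric nucleosome and was 96.4% AT in CEN1, 92.7% AT in CEN3 and 95.2% AT in CEN6.
CEN1: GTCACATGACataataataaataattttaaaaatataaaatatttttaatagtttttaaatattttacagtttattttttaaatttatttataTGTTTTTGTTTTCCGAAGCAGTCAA
CEN3: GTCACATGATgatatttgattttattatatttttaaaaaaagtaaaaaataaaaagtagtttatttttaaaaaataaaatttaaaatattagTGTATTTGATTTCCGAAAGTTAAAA
CEN6: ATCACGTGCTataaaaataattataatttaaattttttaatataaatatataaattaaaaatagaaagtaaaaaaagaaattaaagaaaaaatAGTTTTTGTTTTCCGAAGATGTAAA
An exact match to the ARS consensus on either strand was present in 11 of the 21 origins of the 3 interiors (52.4%), in 124 of the 352 annotated nuclear origins (35.2%) and in 748 of 50080 adjacent genome windows of 241 bases, the median origin length (1.49%). A match is a description of the letters and not of binding.

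Each ratio in the tables is the copy number of a bin, between 1 before and 2 after replication. Over all 3 interiors the mean ratio in SSDDCS was 1.02, 1.10, 1.27, 1.54, 1.75, 1.85, 1.91, 1.96, 1.98, 1.99 and 2.0 at the 11 times from 5 to 60 min, and in sml1Δ it was 1.01, 1.02, 1.13, 1.45, 1.75, 1.89, 1.96, 1.99, 2.0, 2.0 and 2.0. SSDDCS was ahead up to 20 min, the strains had the same mean at 25 min, and sml1Δ was ahead at each time between 30 and 50 min. In the other 13 interiors SSDDCS was still ahead at 25 min, with 1.65 against 1.60 in sml1Δ, and at 30 min, with 1.79 against 1.77. The level of each whole table was set by the authors from flow cytometry, so the comparison that rests on the reads alone is the level of the interiors relative to the mean of the same table.

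On that relative scale the interiors gained their lead between 15 and 25 min. At 15 min they lay at 0.993 of the table mean in SSDDCS and 0.993 in sml1Δ, so they were not ahead of the genome in either strain. At 20 min they had reached 1.04 in SSDDCS and 1.06 in sml1Δ, and at 25 min, the highest point in both, 1.05 in SSDDCS and 1.09 in sml1Δ. The lead of the interiors over the rest of the genome was therefore smaller in SSDDCS, with a difference of -0.0424 ± 0.0032 at 25 min (SE from the noise between neighbouring bins). The other 13 interiors also lay lower in SSDDCS on this scale, by less. Their difference was -0.0035 ± 0.0007 at 20 min and -0.0109 ± 0.0007 at 25 min.

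The 3 chromosomes differed in this. At 25 min the interior of III lay at 1.04 of the table mean in SSDDCS and 1.11 in sml1Δ, a difference of -0.0650 ± 0.0049. The interior of VI lay at 1.06 in SSDDCS and 1.10 in sml1Δ, a difference of -0.0429 ± 0.0051. The interior of I lay at 1.06 in both strains, with a difference of -0.0041 ± 0.0070, inside its error. At 20 min the differences were -0.0117 ± 0.0044 on I, -0.0197 ± 0.0045 on III and -0.0470 ± 0.0058 on VI. The sign on I at 20 min was not stable, since it was 0.0055 with medians in place of means and 0.0068 with bins more than 30 kb from the ends.

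**Figure D1:**
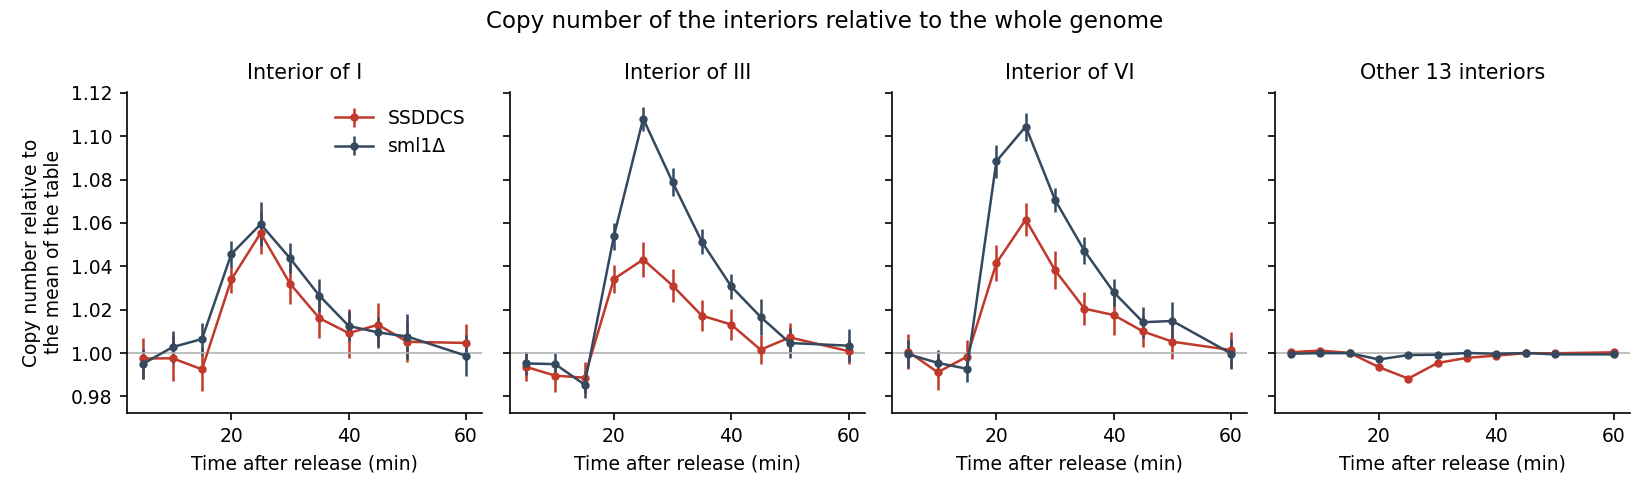
Mean copy number of each interior divided by the mean of the whole table (y axis) against time after release in min (x axis), for the interiors of I, III and VI and the other 13 interiors, SSDDCS in red and sml1Δ in blue-grey; bars are 1.96 SE from the noise between neighbouring bins. All 3 interiors peak at 25 min in both strains, and on III and VI the sml1Δ peak (1.11 and 1.10) stands above that of SSDDCS (1.04 and 1.06).

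The replication time of a bin, Trep, is the time at which a sigmoid fitted to its ratios passes 1.5 copies, and the Trep difference is SSDDCS minus sml1Δ, so a negative value means earlier in SSDDCS. Of the 494 bins, 486 had a Trep in both strains (123 on I, 201 on III and 162 on VI). Of the 8 without one, 2 lacked ratios in too many tables, and the other 6 had ratios in every table but rose so steeply in sml1Δ that the width of the sigmoid could not be determined. In SSDDCS those 6 bins had ratios of 1.10 to 1.23 at 15 min, 1.45 to 1.59 at 20 min and 1.66 to 1.88 at 25 min. In sml1Δ they stood at 0.885 to 1.07, 1.51 to 1.69 and 1.89 to 2.11 at these times.

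The 3 interiors were early in both strains and differed little between them. Their median Trep was 19.7 min in SSDDCS and 20.6 min in sml1Δ, while the other 13 interiors had 21.2 min in SSDDCS and 23.5 min in sml1Δ. The median Trep difference of the 3 interiors was -1.34 min, against -2.18 min in the other 13 interiors and -2.38 min over all bins. The gap between the 3 interiors and the other 13 was 0.84 min, more than the 0.281 min that the noise between neighbouring bins allows at 95%. It compares bins of 1 library per strain and time point, so it holds no spread between cultures. The noise limit also leaves out the spread between chromosomes. The median Trep differences of the other 13 interiors ran from -3.57 min on XIV to -1.09 min on X. That range holds the medians of I and VI but not that of III.

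Among the 486 bins, 344 (70.8%) were earlier in SSDDCS, against a background of 76.6% of all bins. Earlier by at least 5 min, the sampling interval, were 62 (12.8%), against 22.6% of all bins. Later by at least 5 min were 6 (1.23%), against 1.76% of all bins. The share of strongly advanced bins was thus the measure that stood furthest from the background, and when the ratios were averaged over 5 neighbouring bins before the fit it was 40 of 492 bins (8.13%), against 18.1% of all bins. The sign of the medians rests on the flow cytometry factors: when SSDDCS was given the sml1Δ factors, the median Trep difference became 0.98 min in the 3 interiors and -0.21 min over all bins, while the gap to the other 13 interiors was 0.99 min.

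By chromosome, the interior of I had a median Trep of 19.2 min in SSDDCS and 22.01 min in sml1Δ, the earliest of the 16 interiors in SSDDCS and the fourth in sml1Δ. The interior of VI had 19.5 min in SSDDCS and 20.1 min in sml1Δ, and that of III had 20.0 min in SSDDCS and 20.7 min in sml1Δ. The 3 smallest chromosomes were thus the 3 earliest interiors in SSDDCS, whereas in sml1Δ the interior of V lay between those of III and I. The median Trep differences were -1.73 min on I, -1.38 min on VI and -0.93 min on III, ranks 11, 13 and 16 of the 16 interiors from the most negative. The interior of III was the least advanced in 8 of the 10 ways of computing Trep that were tried, and ranked 15 and 14 in the other 2. That of VI ranked 13 or 14 in all 10, while the rank of I was not stable and lay between 5 and 11.

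**Figure D2:**
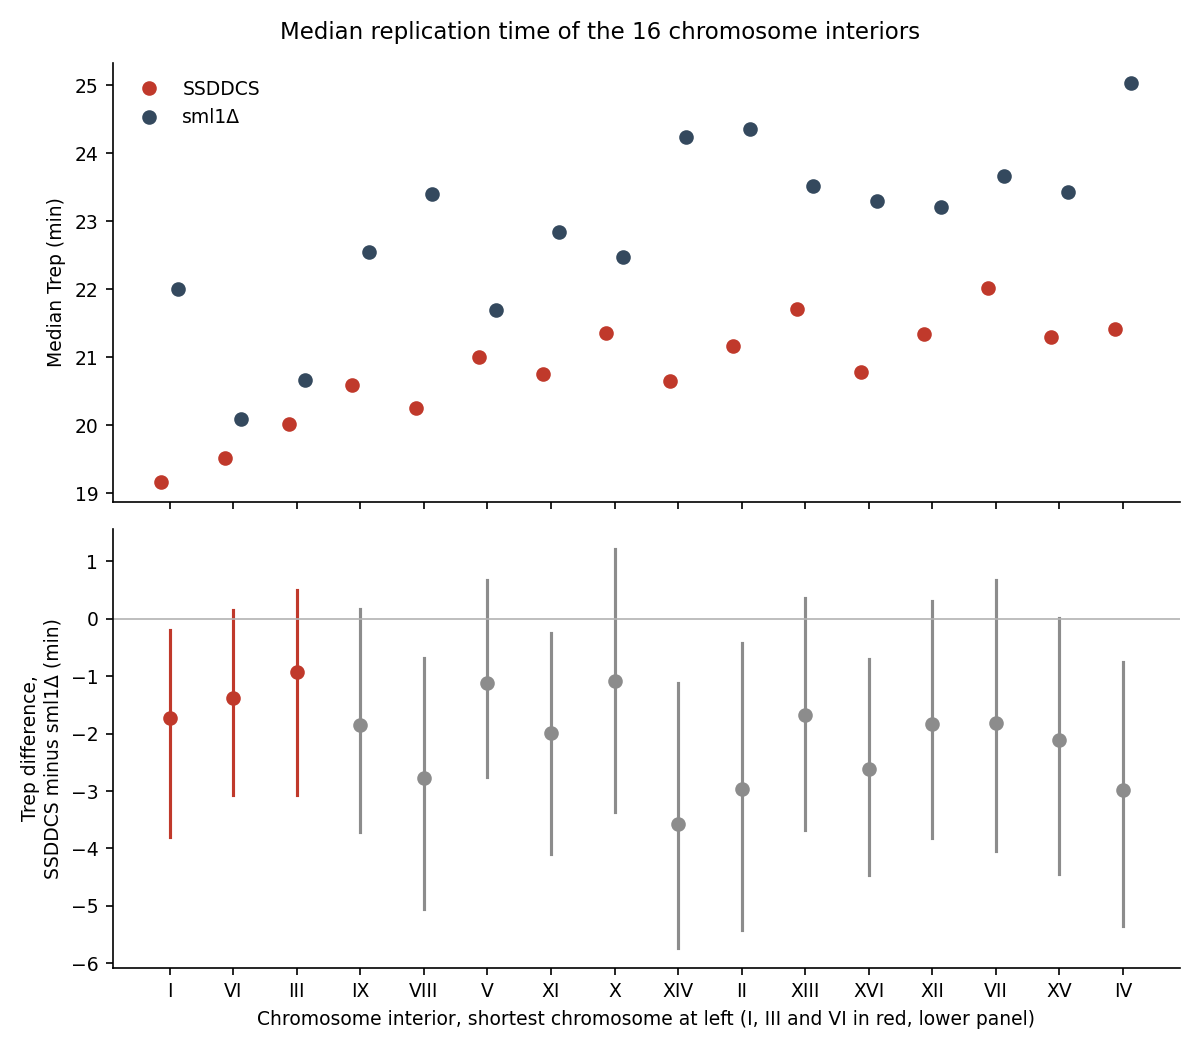
Median Trep in min of the interior of each of the 16 chromosomes (upper panel, SSDDCS in red left of sml1Δ in blue-grey) and the median Trep difference in min with the 25th to 75th percentile of bins as bars (lower panel, I, VI and III in red), shortest chromosome at left. The interiors of I, VI and III have the lowest SSDDCS medians (19.2, 19.5 and 20.0 min), and III has the difference nearest to 0 (-0.93 min).

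The interiors, like the other 13, rose more sharply in sml1Δ than in SSDDCS. How sharply a bin rises also depends on the flow cytometry factors of each strain, and it was not recomputed with common factors. The median time a fitted bin took to go from 1.25 to 1.75 copies was 10.8 min in SSDDCS and 6.66 min in sml1Δ, against 12.9 min in SSDDCS and 10.1 min in sml1Δ in the other 13 interiors. On VI it was 10.7 min in SSDDCS and 5.86 min in sml1Δ, on III 10.9 min in SSDDCS and 6.40 min in sml1Δ, and on I 10.5 min in SSDDCS and 9.27 min in sml1Δ. The interiors of VI and III were the 2 sharpest of all 16 in sml1Δ, and that of I was the seventh. In sml1Δ the median of every 20-kb window between 50001 and 150000 of chromosome III lay between 3.90 and 5.47 min, close to the 5-min spacing of the samples, so these widths are limited by the sampling.

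The Trep difference went with how early a bin replicated in sml1Δ. Bins were sorted by the sml1Δ Trep of their neighbours 2 to 4 kb away, so that the sorting did not use the bin's own value. Of the bins of the 3 interiors, 40.7% fell in the class before 20 min, against 12.2% of those of the other 13, and there the median Trep difference was -0.48 min in the 3 interiors and -1.10 min in the other 13. Between 20 and 22 min it was -1.02 min in the 3 interiors and -1.46 min in the others, and between 22 and 24 min -1.90 min in the 3 interiors and -2.18 min in the others. From 24 to 26 min it was -4.17 min in the 3 interiors and -3.41 min in the others, and beyond 26 min -3.32 min in the 3 interiors and -3.23 min in the others. The gap to the other chromosomes was larger than the noise between neighbouring bins allows at 95% only in the class before 20 min, with 0.62 min against 0.472 min. In the other 4 classes it lay between -0.76 and 0.43 min and within that noise.

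Along the chromosomes the shift was uneven. In windows of 20 kb the median Trep difference was below 0 in 22 of 27 windows and above 0 in 5 (18.5%), against 14.3% of the windows of all 16 interiors above 0. A median of -4 min or below was found in 2 windows (7.41%), against 24.5% of all windows. These 2 were position 190001 to 210000 of III, with 19.6 min in SSDDCS and 24.6 min in sml1Δ, and 70001 to 90000 of VI, with 22.3 min in SSDDCS and 26.7 min in sml1Δ. All 7 windows of chromosome I were below 0, from -3.79 to -0.11 min. Of the 5 windows above 0, 4 were consecutive on III, from 70001 to 150000, with medians of 0.10 to 0.64 min, and 1 was on VI, from 150001 to 170000, with 0.15 min. The noise of 2.46 min in a single bin allows 1.39 min at 95% for a median of 19 bins. With this limit computed for each window, 12 of the 27 windows were below 0 (44.4%), against 61.2% of all windows, and none of the 5 above 0 was beyond it. On I 4 of 7 windows were below 0 by more than the noise, on III 5 of 11 and on VI 3 of 9.

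The arms reach unequal distances from the centromere within the interiors. On I the left arm had a median Trep difference of -2.47 min over 101 bins and the right arm -0.46 min over 22 bins. On III the left arm had 0.23 min over 55 bins, with 45.5% of bins earlier in SSDDCS, and the right arm -1.45 min over 146 bins. On VI the left arm had -2.29 min over 93 bins and the right arm -0.36 min over 69 bins. All 28 bins of III that were earlier by at least 5 min lay on its right arm. When both arms were taken only as far from the centromere as the shorter one reaches, the left and right medians were -0.81 and -0.46 min within 28 kb on I, 0.23 and -0.53 min within 64 kb on III and -1.05 and -0.36 min within 71 kb on VI. Of these 6 medians only that of the left arm of VI was beyond its noise at 95%, 0.751 min, so the large values on the left arms of I and VI and the right arm of III came from bins farther from the centromere.

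**Figure D3:**
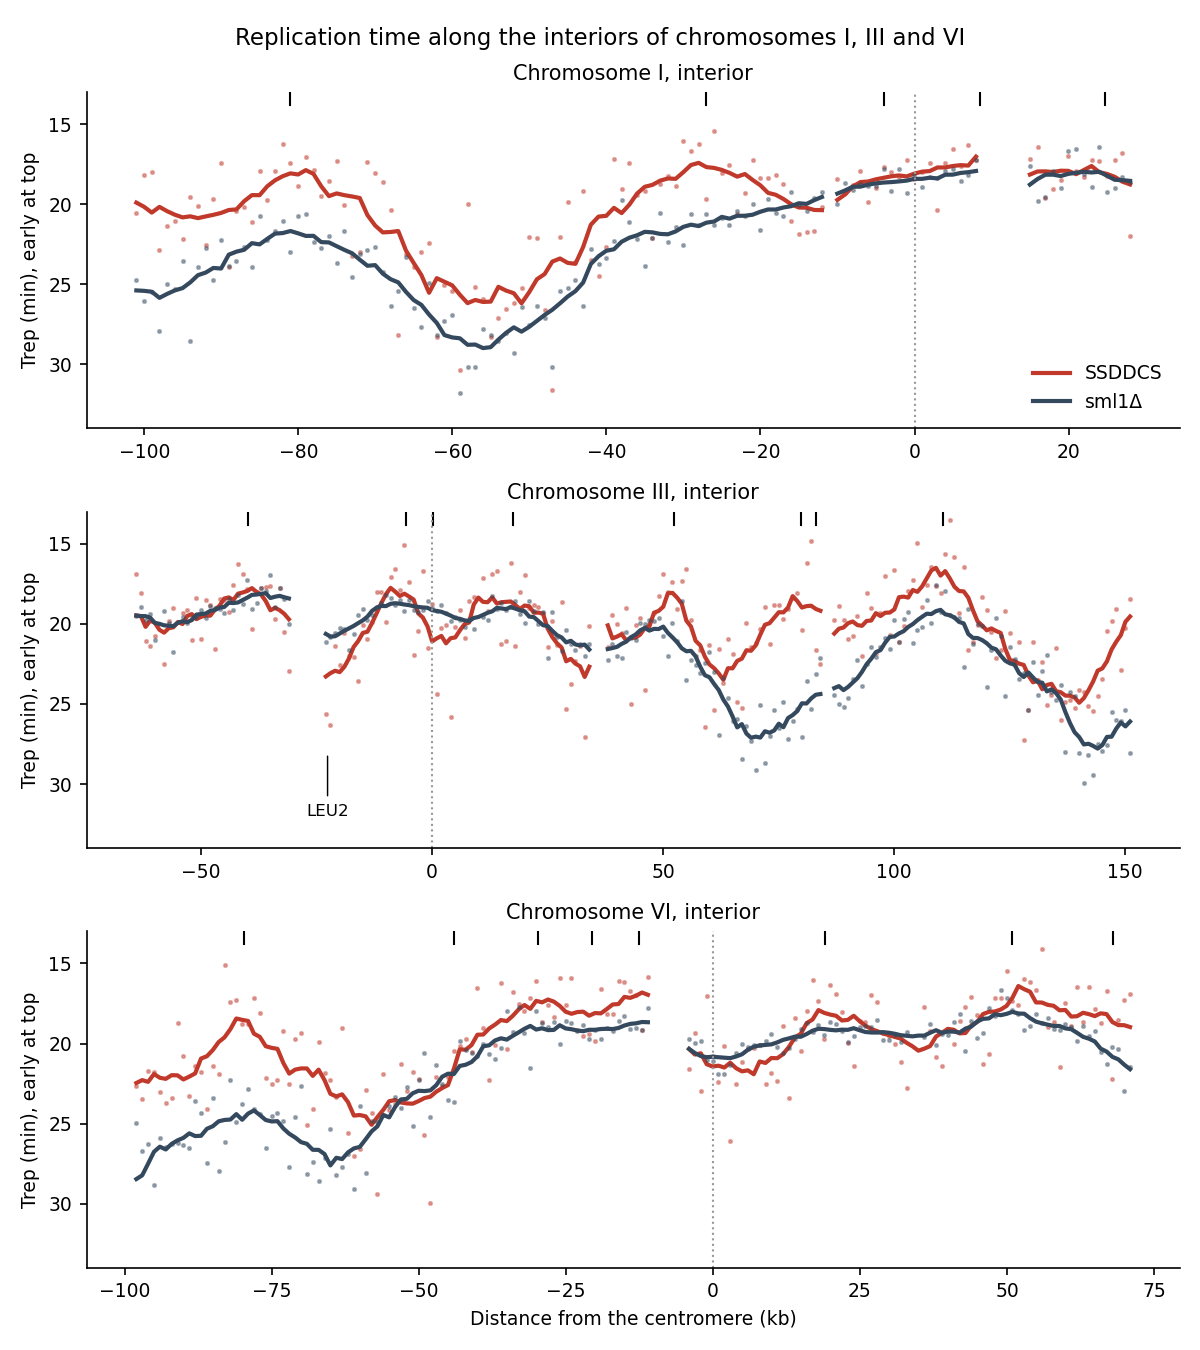
Trep in min (y axis, early at the top) against distance from the centromere in kb (x axis) along the interiors of I, III and VI; points are single bins, lines 9-bin moving averages, SSDDCS in red and sml1Δ in blue-grey, black ticks annotated origins and the dotted line the centromere. The strains run together around the centromere of I, while SSDDCS is later beside that of III and just right of that of VI. They part far out on the left arms of I and VI and around ARS313 and ARS314 on the right arm of III. LEU2 holds the latest single bin of SSDDCS within 25 kb of the centromere of III.

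The centromeres, which direct kinetochore assembly, had differences smaller than their SE in their own bins. CEN1 had a Trep of 18.5 ± 0.77 min in SSDDCS and 18.2 ± 0.33 min in sml1Δ (SE of the fit), a difference of 0.25 ± 0.84 min. CEN3 had 18.8 ± 0.81 min in SSDDCS and 18.99 ± 0.951 min in sml1Δ, a difference of -0.23 ± 1.248 min, and shares its bin with ARS308. Over the 5 bins around CEN3 the difference was 1.37 min, and linear interpolation gave 1.72 min at its own bin, so its sign depends on the fit and the bins taken. CEN6 had 20.8 ± 0.98 min in SSDDCS and 21.1 ± 0.59 min in sml1Δ, a difference of -0.31 ± 1.15 min. CEN6 was thus later than the median of its own interior in both strains (19.5 min in SSDDCS and 20.1 min in sml1Δ). Over 5 bins CEN1 differed by -0.63 min and CEN6 by -0.49 min. Within 25 kb of them the median Trep difference was -0.44 min around CEN1, 0.38 min around CEN3 and -0.33 min around CEN6. The other 13 centromeres had a median difference of 0.06 min at the centromere and -0.46 min within 25 kb, and ranged between -1.03 and 5.85 min at the centromere, a range that holds all 3.

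Origins were dense in the 3 interiors, with 21 annotated in 516 kb, 4.07 per 100 kb against 2.66 per 100 kb in the other 13 interiors. The median distance of a bin to the nearest origin was 7.06 kb, against 11.3 kb, and 13.4% of bins were more than 15 kb away, against 37.6%. A Trep was obtained for 20 of the 21, since the bin of ARS101 on I overlaps a repeat and lacked ratios. Their median Trep was 18.8 min in SSDDCS and 19.4 min in sml1Δ, with a median difference of -0.95 min, while the 262 origins of the other 13 interiors had 18.2 min in SSDDCS, 21.1 min in sml1Δ and a difference of -3.05 min. Of the 20 origins, 15 were earlier in SSDDCS, against a background of 87% of all origins with a Trep, and 2 were earlier by at least 5 min, against 28.7%. Beyond 1.96 SE of the fit 5 were earlier, against 55.9% of all origins, and 0 were later.

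Those 5 were ARS106, ARS307, ARS313, ARS603 and ARS603.1. When SSDDCS was given the sml1Δ bulk factors, only ARS106 of the 5 stayed beyond 1.96 SE. In 3 of the 5, ARS313, ARS106 and ARS603, the difference was larger than 4.83 min, 1.96 times the noise of a single bin. These 3 are the most negative of their chromosomes, and 28.7% of all origins with a Trep were earlier by at least 5 min. At ARS313, an intergenic origin on the right arm of III, the ratio in SSDDCS was 0.960, 1.06, 1.33, 1.56, 1.76, 1.76, 1.88, 1.73, 1.97, 1.94 and 1.87 at the 11 times, and in sml1Δ it was 0.929, 1.03, 1.09, 1.17, 1.49, 1.66, 1.77, 1.91, 1.94, 1.69 and 1.72. SSDDCS was higher at 10 of the 11 times, all but 40 min, and the gap was widest at 20 min. The flow cytometry factors within these ratios were also higher in SSDDCS up to 30 min, with 1.48 against 1.37 at 20 min. The count of times therefore does not rest on the reads alone. Its Trep was 20.4 ± 1.56 min in SSDDCS and 27.0 ± 1.91 min in sml1Δ, a difference of -6.65 ± 2.47 min. Over the 5 bins around it the difference was -7.87 min, and the 9-bin average had a minimum near this origin in SSDDCS but not in sml1Δ.

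ARS106, an intergenic origin on the left arm of I, had ratios of 1.19, 1.42, 1.63 and 1.83 at 10, 15, 20 and 25 min in SSDDCS, against 1.05, 1.18, 1.46 and 1.60 in sml1Δ. SSDDCS was higher at all 4 of these times. Its Trep was 17.4 ± 0.80 min in SSDDCS and 23.0 ± 0.99 min in sml1Δ, a difference of -5.52 ± 1.27 min. ARS603, an intergenic origin on the left arm of VI, had ratios of 1.03, 1.42, 1.64 and 1.75 at the same times in SSDDCS, against 0.977, 1.15, 1.39 and 1.58 in sml1Δ. SSDDCS was again higher at all 4. The flow cytometry factors at these times were 1.11, 1.28, 1.48 and 1.66 in SSDDCS, against 1.02, 1.14, 1.37 and 1.60 in sml1Δ. At both origins the order of the strains is therefore partly set by the factors. Its Trep was 18.8 ± 1.17 min in SSDDCS and 23.8 ± 0.92 min in sml1Δ, a difference of -4.99 ± 1.49 min.

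The single bin and the 5 bins around it gave different values at several origins. They were more than 2 min apart at 6 of the 20 origins (ARS107, ARS307, ARS309, ARS314, ARS603.1 and ARS608) and differed in sign at 7 (ARS108, ARS306, ARS308, ARS309, ARS605, ARS606 and ARS608). Over 5 bins the median difference of the 20 origins was -1.67 min, against -2.67 min at the origins of the other 13 interiors, and 18 of 20 were earlier in SSDDCS, against 90.7% of all origins. ARS307, which overlaps the gene LDB16 on III, had a Trep of 15.1 ± 1.03 min in SSDDCS and 19.2 ± 0.92 min in sml1Δ, a difference of -4.07 ± 1.38 min, but over 5 bins the difference was only -1.03 min. ARS603.1, inside MDJ1 on VI, had 20.5 ± 0.93 min in SSDDCS and 23.6 ± 0.67 min in sml1Δ. The difference at ARS603.1 was -3.13 ± 1.15 min, and over 5 bins -0.96 min. ARS107 on I had the larger value around it, with -0.94 ± 1.34 min at its own bin and -3.73 min over 5 bins, and ARS314 on III had -1.51 ± 1.595 min and -4.73 min.

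In their own bins the earliest origins of sml1Δ differed between the strains by less than the SE of the difference. ARS108 on I had 17.7 ± 0.58 min in SSDDCS and 17.8 ± 0.44 min in sml1Δ, ARS306 on III had 17.8 ± 1.28 min in SSDDCS and 17.3 ± 1.09 min in sml1Δ, and ARS607 on VI had 17.4 ± 1.45 min in SSDDCS and 17.9 ± 0.52 min in sml1Δ. ARS309 on III had the highest difference of those named, 2.81 ± 2.01 min, within 1.96 SE, and over 5 bins it was -0.48 min. Of the others named by the rule, ARS110 differed by -0.96 ± 1.08 min, ARS310 by -2.55 ± 1.484 min and ARS603.5 by -1.83 ± 1.10 min. ARS606 differed by 0.25 ± 1.49 min, but by -1.74 min over 5 bins. ARS605 had 19.1 ± 0.63 min in SSDDCS and 19.1 ± 0.70 min in sml1Δ, but differed by -1.60 min over 5 bins. A scale fitted per bin turned ARS309 to -2.18 min, ARS306 to -3.22 min, ARS606 to -2.57 min and ARS605 to -1.48 min, and gave -3.56 min at ARS607, so the values near or above 0 at these origins depend on the fit.

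**Figure D4:**
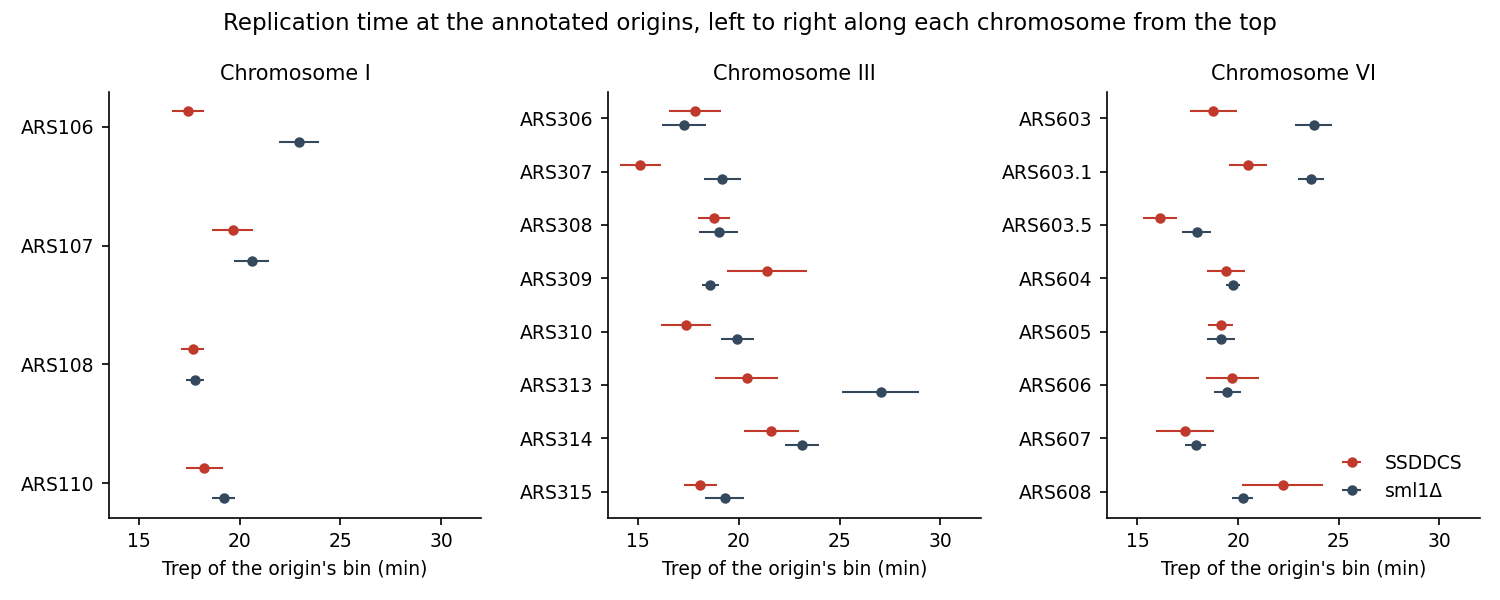
Trep in min (x axis) of the bin of each of the 20 origins with a Trep, on I, III and VI, in chromosome order from the top; red points are SSDDCS, above the blue-grey points of sml1Δ, and bars are 1 SE of the fit. ARS106, ARS313 and ARS603 show the widest gaps (-5.52, -6.65 and -4.99 min).

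Regions that replicated later in SSDDCS were defined as runs of 5 or more bins whose 9-bin average was later by at least 1 min. They covered 26 kb of the 3 interiors, 5.26% of bins against 5.33% in the other 13 interiors, with 3 of the 4 runs on III and none on I. The longest, position 91001 to 99000 of III with the genes LEU2, NFS1, DCC1 and BUD3, had a mean Trep of 23.0 min in SSDDCS and 20.6 min in sml1Δ, a difference of 2.41 ± 0.43 min (SE of the fits). The run from 113001 to 120000 of III holds CEN3 and CDC10, with 21.6 min in SSDDCS, 19.2 min in sml1Δ and a difference of 2.38 ± 0.54 min. The run from 143001 to 149000 of III differed by 2.02 ± 0.55 min, and that from 153001 to 158000 of VI by 0.83 ± 0.50 min, within 1.96 SE. Because the runs were picked for a later average in these same data, setting their differences against an SE is no test. The SEs of the fits are also narrower than the noise between neighbouring bins.

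LEU2, which encodes an enzyme of leucine synthesis, stood out in the first of these runs. Its 2 bins had a mean ratio of 1.03, 1.10, 1.16, 1.24, 1.47, 1.67, 1.801, 1.96, 1.86, 1.92 and 1.91 at the 11 times in SSDDCS, against 1.0, 1.02, 1.01, 1.40, 1.86, 1.97, 2.03, 2.10, 2.01, 2.01 and 2.0 in sml1Δ. SSDDCS was higher up to 15 min and lower at each of the 8 times from 20 min on. The flow cytometry factors were higher in SSDDCS up to 30 min, so its higher ratios up to 15 min do not rest on the reads alone. The Trep of the 2 bins was 25.6 and 26.3 min in SSDDCS, against 21.2 and 20.8 min in sml1Δ, a mean difference of 4.96 ± 0.66 min. The next 6 bins of the run differed by 0.23 to 4.16 min. Over 9 other ways of computing it, applied to this gene after the data were seen, the difference at LEU2 lay between 3.23 and 6.37 min.

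LEU2 is also the locus where the SSDDCS strain carries the Sld7 and Cdc45 construct with its LEU2 marker, and by the genotypes sml1Δ has no insertion there. Reads from the marker and from the resident locus fall in the same bins. The part of the insertion in this difference was not tested. The other loci used in the constructs lie on other chromosomes, and HIS3 differed by -2.52 ± 1.17 min and TRP1 by 1.88 ± 0.83 min. URA3, the marker at SML1 in sml1Δ, differed by 0.998 ± 1.36 min.

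Of the 26 listed genes, 22 lay in the interiors with a Trep, and 12 were earlier in SSDDCS beyond 1.96 SE of the fit, a share at the background of 54.9% of all genes with a Trep, while 2 were later, against 5.99%. Beyond 1.96 times the noise between neighbouring bins, which is wider than the fit SE, 6 were earlier (ACT1, TUB2, CDC19, TUP1, FUN30 and TAF2), against 36% of all genes, and only LEU2 was later, against 2.38%. The median difference over the 22 was -1.36 min. The genes were taken from a list of well-known loci and are read here as positions along the chromosome. Outside the interiors were CDC26 and ABP1. The mating-type genes MATALPHA1 and MATALPHA2 had no Trep because their bins were absent from the tables. R64 is annotated with the alpha genes there, while both strains are MATa.

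Among 9 cell cycle and replication genes, 6 had negative and 1 a positive difference beyond 1.96 SE of the fit, but none of the 9 was beyond the noise between neighbouring bins. CLN3, a G1 cyclin near ARS106, had a Trep of 19.6 ± 0.58 min in SSDDCS and 22.3 ± 0.42 min in sml1Δ. The difference was -2.68 ± 0.72 min at CLN3, and -2.08 ± 0.79 min at CDC24, the exchange factor of Cdc42. CDC4, the F-box subunit of the SCF ubiquitin ligase, differed by -2.52 ± 0.69 min, CDC14, the mitotic exit phosphatase, by -1.60 ± 0.55 min, SMC1 of cohesin by -1.37 ± 0.50 min, and RFA1, the large subunit of the single-stranded DNA binding protein RPA, by -1.35 ± 0.57 min. CDC10, a septin next to CEN3, had the positive value, with 22.9 ± 0.93 min in SSDDCS, 19.6 ± 0.34 min in sml1Δ and a difference of 3.34 ± 0.99 min, where the noise of its 2 bins has an SE of 1.74 min. The differences at CDC15, a mitotic exit kinase, and RAD18, a ubiquitin ligase of damage tolerance, were 0.17 ± 0.63 min and -0.03 ± 0.94 min.

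The cytoskeleton genes ACT1 (actin) and TUB2 (beta-tubulin) lie a few kb apart on the left arm of VI and were both earlier. ACT1 had 22.4 ± 0.48 min in SSDDCS and 27.4 ± 0.67 min in sml1Δ, a difference of -4.995 ± 0.827 min. TUB2 had 21.1 ± 0.68 min in SSDDCS and 26.2 ± 0.75 min in sml1Δ, a difference of -5.18 ± 1.01 min. The ACT1 ratio at 25 min was 1.65 in SSDDCS and 1.38 in sml1Δ. BIK1, a microtubule plus-end protein on III, differed by -0.72 ± 0.77 min.

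All 4 chromatin and transcription genes had a negative difference. Beyond the noise between neighbouring bins 3 were earlier, against 36% of all genes. The 4 come from the list of well-known loci and do not stand for such genes in general. TUP1, a general corepressor near the right edge of the interior of III, had the most negative difference of the list, with 19.8 ± 0.53 min in SSDDCS, 26.3 ± 0.45 min in sml1Δ and a difference of -6.55 ± 0.70 min. TAF2, a TFIID subunit near ARS314, differed by -4.54 ± 0.63 min, and FUN30, a chromatin remodeller on I, by -2.58 ± 0.63 min. TFC3, a TFIIIC subunit next to CEN1, differed by -0.53 ± 0.45 min.

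Of 6 metabolic genes, 3 had a negative and 3 a positive difference. Beyond the noise between neighbouring bins only CDC19, the pyruvate kinase gene next to ARS106, was earlier, by -3.28 ± 0.76 min, against 36% of all genes. Only LEU2 was later beyond that noise, against 2.38% of all genes. The differences at HIS4, PGK1, CIT2 and ILV6, all on III, lay between -0.49 and 0.17 min and were within 1.96 SE. Over the whole list the largest advances were thus on the left arms of I and VI and the right arm of III, and LEU2 and CDC10, with the highest values, were on III within 25 kb of CEN3.

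**Figure D5:**
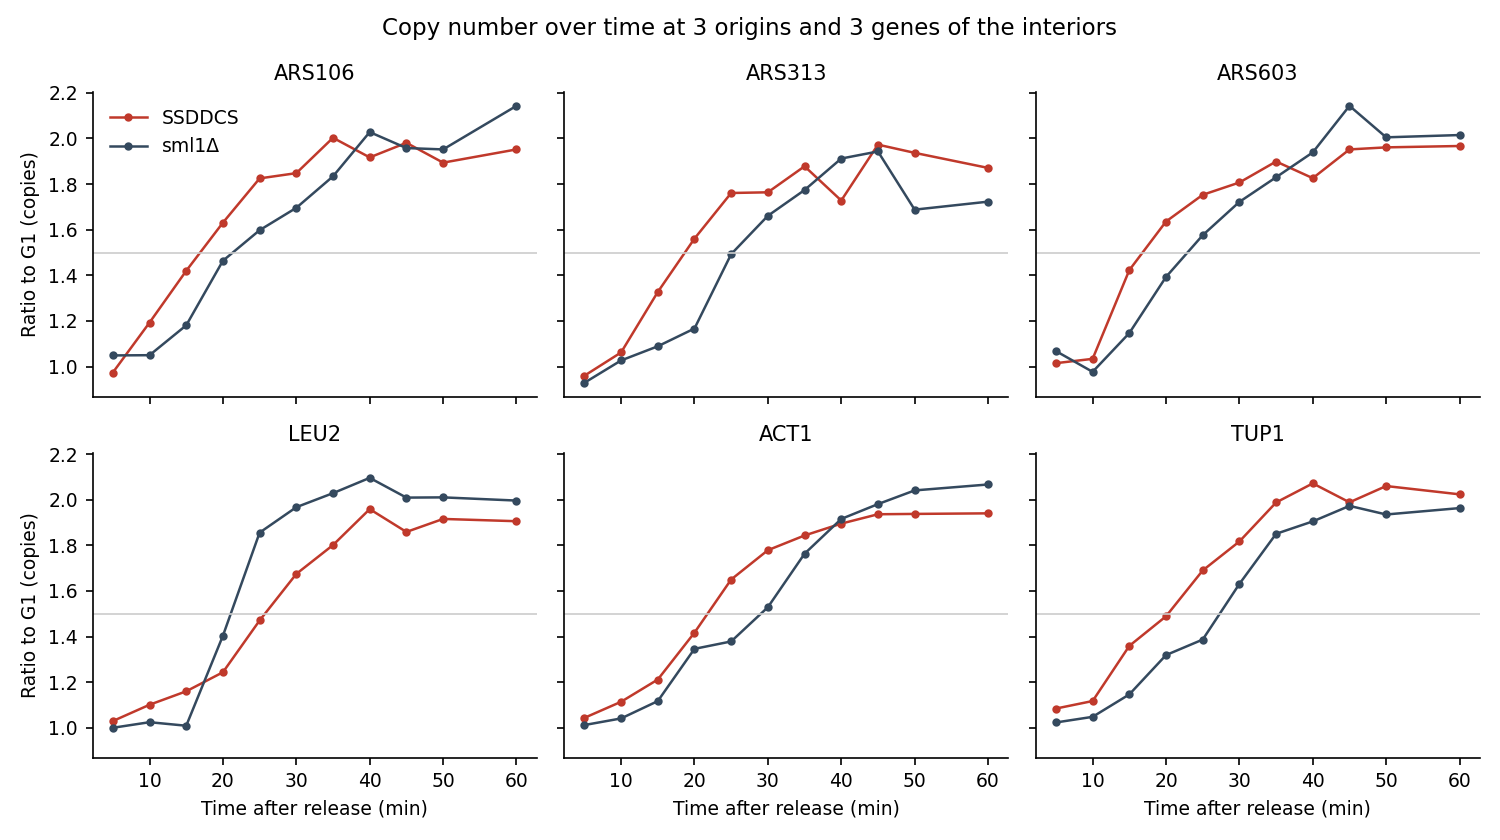
Ratio to G1 in copies (y axis) against time after release in min (x axis) for the bins of 3 origins (ARS106, ARS313 and ARS603) and 3 genes (LEU2, ACT1 and TUP1), SSDDCS in red and sml1Δ in blue-grey, 1 library per point; the grey line is 1.5 copies. The SSDDCS curve crosses 1.5 copies first at all but LEU2, where the mean fitted Trep is 25.96 min in SSDDCS and 21.0 min in sml1Δ.

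Between the strains, Trep had a Pearson coefficient of 0.72 on I, 0.39 on III and 0.57 on VI and a Spearman coefficient of 0.65 on I, 0.44 on III and 0.61 on VI. In the other 13 interiors the coefficients were 0.63 and 0.60, with I above both and III below both. These are descriptions over bins that share libraries along a chromosome and are not independent, and the noise of single bins enters each of them. The spread of Trep from the 10th to the 90th percentile was 7.25 min in SSDDCS and 7.98 min in sml1Δ in the 3 interiors, against 10.3 min in SSDDCS and 9.80 min in sml1Δ in the other 13.

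Noise between neighbouring bins was 4.89 to 5.67% of the ratio in the SSDDCS libraries and 3.85 to 5.34% in the sml1Δ libraries. Fit SEs leave out the noise of the shared G1 library, and the Trep difference of neighbouring bins had a robust SD of 2.46 min over all bins and 2.02 min in the 3 interiors. The median GC content of the bins was 38.6% in the 3 interiors and 37.9% in the other 13, and after a correction of each table for GC, chosen after the data were seen, the median difference of the 3 interiors was -1.29 min.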

How the data were processed

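The authors mapped reads with Bowtie2 (version 2.2.6) to the S288C genome (sacCer3, R64) and summed the unique alignments per 1-kb bin. The submitters' processing notes also name SAMtools (1.7.2) and bedtools (2.26.0), and the study's methods give another SAMtools version. The 22 deposited tables hold, per bin, the ratio of S-phase to G1 reads, which the authors multiplied by a bulk factor taken from flow cytometry; the factor is deposited as a second ratio, and table means differed from it by at most 0.00403. No counts were given, so depth is unknown and precision was read from neighbouring bins. Strain and time came from the sample titles.

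A sigmoid from 1 to 2 copies was fitted per bin and strain by least squares (numpy 2.4.6, Python 3.11.15). Bins were kept with ratios at 9 or more time points and, in each strain, a Trep of 5 to 60 min with an SE no larger than 5 min, which left 11302 of 11328 bins. The fit was tested on simulated data in which all bins of both strains rose equally sharply. That test therefore does not cover the steepest bins or strains that rise with unequal sharpness. With 1 library per strain and time point no test was made, and values are given with fit SEs or noise between neighbouring bins. Origins, centromeres and genes came from the RefSeq annotation of R64, the assembly the authors used. The origins named were, per chromosome, the 3 with the most negative and the 2 with the highest Trep difference among those with an SE within 2 min, and the earliest in sml1Δ. The centromeres, the later runs and a gene list were named too. The interiors and lists were chosen with earlier results of these data known. Alternatives changed the bulk factors, smoothing, curve, SE limit, time points and distance from the ends.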

Additional observations from a re-analysis of the deposited data

How the results depend on the processing

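No paired analysis was possible because the strains shared 1 replicate number only, with 1 library at every time. With 1 library per point, a single aberrant culture could not be recognised, and the unknown depth limits single bins more than medians. The gap between the 3 interiors and the other 13 kept its direction under all 11 alternatives, between 0.68 and 1.07 min.

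Giving SSDDCS the sml1Δ bulk factors shifted the median of all bins by 2.17 min. The median Trep differences became 0.23 min on I, 1.27 min on III, 0.97 min on VI and 0.98 min over the 3 interiors, with 183 bins earlier (37.65%, against 52.38% of all bins), 16 earlier by at least 5 min (3.29%, against 8.03%) and 19 later by at least 5 min (3.91%, against 4.56%). Averaging over 5 bins gave -2.50 min on I, 40 bins earlier by at least 5 min and 0 later by at least 5 min. A fitted scale gave -1.58 min on III, -1.72 min over the 3 interiors and 1 bin later by at least 5 min. Interpolation gave 0 such bins and the GC correction 3. The tables at 5, 15, 25, 35, 45 and 60 min gave -2.57 min on I, and those at 10, 20, 30, 40 and 50 min gave -1.47 min on III and -1.76 min over the 3 interiors. Bins more than 30 kb from the ends gave -1.95 min on VI and 105 bins earlier by at least 5 min, and bins more than 70 kb gave -0.81 min on VI.

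The difference in relative copy number at 20 min was 0.0068 on I and -0.0330 on VI with bins more than 30 kb from the ends, and -0.0103 on III with bins more than 70 kb from them. With medians it was 0.0055 on I, -0.0546 on III and -0.0680 on VI, and at 25 min it was -0.0650 on III. The causes were not tested. Of 163 values of single loci under the alternatives, 144 stayed within 1.96 SE of the original value and 19 moved further. An SE limit of 2 min and no SE limit only filter bins, so neither could move a value of these loci. Each of these settings accounts for 19 of the 144. The sign changed in 30 of the 163, at 10 of the named origins and all 3 centromeres, and 6 of these sign changes were among the 19 values that moved further. None of the 54 values of loci beyond 1.96 SE of 0 changed sign, but 6 from each of the 2 SE settings could not change. An unchanged sign is also not an unchanged call. With the sml1Δ bulk factors ARS307 (-1.38 min), ARS313 (-4.285 min), ARS603 (-2.34 min) and ARS603.1 (-0.94 min) came within 1.96 SE of 0. ARS106 (-2.80 min) and LEU2 (6.37 min) stayed beyond it.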
